A study of Mus musculus with 4 samples.

Results

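The protein disulfide isomerase family was examined in mouse small intestinal (SI) organoids, epithelial cultures grown from crypts. The family comprised 8 genes, Pdia2, Pdia3, Pdia4, Pdia5, Pdia6, P4hb, Erp44 and Txndc5, of the 55487 genes listed in the count and TPM tables. They were selected by symbol, and Pdia2 was selected because it fell in the comparison described here. All 8 genes passed edgeR's filter on low counts, which kept 17155 genes. The organoids carried a lentivirus that expressed a miRNA mimic control in replicates 1 and 2 and the miR-181a-5p mimic in replicates 3 and 4. Both groups were kept in puromycin at 2 µg/ml, which selects transduced cells, so the controls shared the virus and the drug. The mouse strain, age and sex are not given in the sources used here, nor whether each library was a transduction of its own. The p-values therefore measure only the spread between these libraries, which may be technical.

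Disulfide isomerases are thioredoxin-like enzymes of the endoplasmic reticulum (ER). They form, break and rearrange disulfide bonds in proteins that enter the secretory pathway, and pass electrons to oxidases such as Ero1. Secretory IECs, such as goblet and Paneth cells, depend on this machinery to fold mucins and antimicrobial peptides, and enterocytes use P4hb as a subunit of the lipid transfer protein that loads lipoproteins. Several members are induced by the unfolded protein response (UPR), in which the factors ATF6 and XBP1 act through elements in the promoters of ER chaperone genes.

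A mature miRNA pairs through its seed, bases 2 to 8, with matching stretches of mRNAs and lowers their level, and a mimic adds more of it. The mature miR-181a-5p is given first, with its seed in capitals, followed by the stretches of member 3' UTRs that held a perfect match to the seed, with the match in capitals.
miR-181a-5p: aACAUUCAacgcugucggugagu
Pdia6: ctgactgctgctTGAATGTtcctggaggct
Txndc5: tagtcagaaagcTGAATGTattgagcttgt
The miRNA sequence is from RefSeq (GRCm38.p6) and is encoded on the plus strand at chr1:137966468-137966490 and chr2:38852741-38852763. The 3' UTR sequences are from GENCODE release 21 for mouse (GRCm38) and lie at chr12:17284251-17284280 (plus strand) for Pdia6 and chr13:38501484-38501513 (minus strand) for Txndc5. The Pdia6 match began at base 257 of a 3' UTR of 764 bases, and the Txndc5 match at base 85 of 1507 bases. The other 6 members held no match to TGAATGT in their longest annotated 3' UTR. None of the 8 held one in the coding sequence. Among the tested genes, 2468 of the 13016 with an annotated 3' UTR held the match there. Of the 13099 with an annotated coding sequence, 1665 held it in that sequence. Pdia2, with a 3' UTR of only 83 bases, was among the members without a match. A match is a description of the letters and was not tested as a site of binding, and the level of the mature miRNA was not analysed here.

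The 4 libraries held between 31104884 and 38111731 expected counts, RSEM's estimates of reads per gene, and their TMM scaling factors lay between 0.978 and 1.01. Normalized CPM are counts scaled to a common library size. Of 7 epithelial markers all were well expressed (summed TPM 2592 to 3072), whereas 6 mesenchymal markers summed to at most 0.16 TPM and 6 markers of leukocytes and endothelium to at most 0.55 TPM. Of 7 goblet cell markers, 3 had log2 fold changes above 0 and 4 below. Spink4 was lower (adjusted p = 0.0353 in edgeR). Tff3 had -0.43 (adjusted p = 0.0511), with both mimic libraries below both controls in normalized CPM. Clca1 had -0.93 (adjusted p = 0.2499) and Zg16 -1.19 (adjusted p = 0.403), with groups that overlapped. Spdef had 0.72 (adjusted p = 0.0613), Muc2 0.59 (adjusted p = 0.334) and Fcgbp 0.15 (adjusted p = 0.62). Muc2 was above the controls only in mimic replicate 3 (185 normalized CPM), and mimic replicate 4 (73.3) was below both controls. The summed TPM of the goblet cell markers was 1152 and 1267 in the controls, against 1044 and 1016 with the mimic. Of 7 Paneth cell markers, 6 had log2 fold changes below 0 and 1 above, with a median of -0.80. None was called, where 2.29% of all genes tested were lower and 1.28% higher. At an unadjusted p under 0.05 in edgeR, 3 were lower and 0 higher (13.0% and 11.8% of all genes tested). Ang4 came nearest to a call (-1.03, adjusted p = 0.0512). Their summed TPM was 2340 in control replicate 1, and between 1215 and 1571 in the other 3 libraries.

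Pdia2 encodes an isomerase known from the pancreas, where it is abundant in acinar cells. It lies at chr17:26195999-26199087 on the minus strand of GRCm38 and shares no base with another annotated gene. Its expected counts were 1267 and 1126 in the controls, against 266 and 219 with the mimic, all whole numbers, which is what unambiguous reads give. In normalized CPM these were 33.0 and 36.3 against 8.49 and 6.15. Both mimic libraries were far below both controls. Relative to their level, the mimic libraries differed more from each other than the controls did. The pooled SD of log2 normalized CPM within the groups was 0.243. The mean was 34.7 ± 2.32 in the controls, against 7.32 ± 1.65 with the mimic (SD, n = 2), a log2 fold change of -2.25, or 4.75-fold lower. Because Pdia2 was selected on this contrast, no test is given for it. The value stayed between -2.49 and -2.01 under every alternative fit and with any single library left out. This range describes the dependence on the fit and is no separate support, because the fits reuse the libraries on which Pdia2 was selected. In these bulk libraries, fewer cells that express a gene and less RNA per cell cannot be told apart.

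Markers of pancreatic acinar cells were read beside Pdia2. Of 12 markers, 7 had 0 counts in all 4 libraries, among them the carboxypeptidase genes Cpa1 and Cpb1, the lipase gene Pnlip, the trypsinogen gene Prss2 and the acinar regulator Ptf1a. A further 2, Cel and Rbpjl, had at most 4 counts in any library. The chymotrypsinogen gene Ctrb1 had 105 and 84.6 TPM in the controls, against 32.4 and 37.7 TPM with the mimic. It was lower by edgeR's quasi-likelihood test (log2 fold change -1.51, adjusted p = 0.00506), and carried most of the list's summed TPM of 125 and 99.6 in the controls, against 41.7 and 54.7 with the mimic. Cela1, with 128 to 195 counts, and Sycn, with 22 to 148, were the other tested markers (log2 fold changes -0.18 and -0.89, adjusted p = 0.647 and 0.336). Of 10 markers of stomach epithelium, 8 had at most 29 counts in any library, among them Gkn1 and Gkn2 with 0 in all 4. The list summed to 6.35 and 4.49 TPM in the controls, against 2.24 and 2.44 TPM with the mimic. Most of this was Atp4a, with 4.38 and 2.90 against 1.59 and 1.75 TPM (log2 fold change -1.02, adjusted p = 0.0646 in edgeR). Muc6, the other tested marker, had 0.45 (adjusted p = 0.410). The part of such cells in the level of Pdia2 was not tested.

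**Figure D1:**
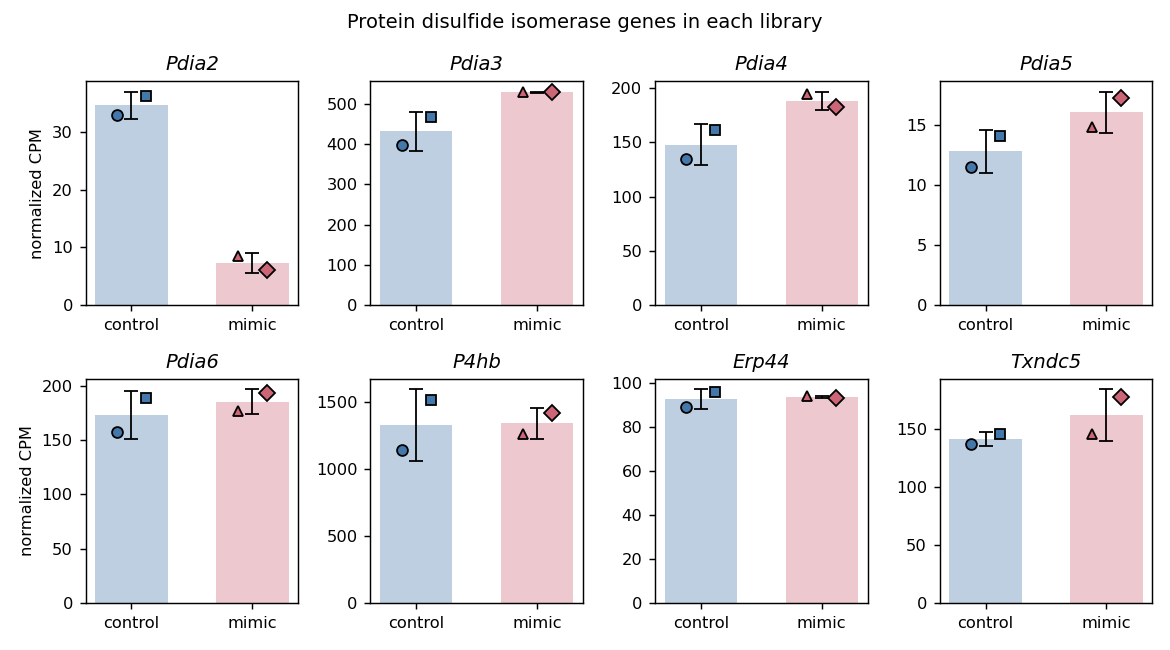
Normalized CPM of the 8 genes in each library. The vertical axes start at 0 and differ between panels. Bars show the mean of each group, error bars the SD (n = 2), circles and squares control replicates 1 and 2, and triangles and diamonds mimic replicates 3 and 4. Pdia2 fell from 34.7 to 7.32 normalized CPM, while Pdia6, P4hb and Erp44 overlapped between the groups.

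None of the 7 other members was lower or higher once the p-values of the quasi-likelihood test in edgeR were adjusted over all genes (Benjamini-Hochberg, threshold 0.05). Of all genes tested, 2.29% were lower and 1.28% higher by this rule. At an unadjusted p under 0.05, 2 of the 7 were higher (Pdia3 and Pdia4) and 0 lower, against 11.8% and 13.0% of all genes. DESeq2 and edgeR's exact test likewise called 0 of the 7, but each called more of all genes. The exact test called 1027 lower and 761 higher among the 17155 genes, and DESeq2 652 lower and 646 higher. All 7 log2 fold changes were above 0, with a median of 0.19, whereas the median of all genes tested was -0.01. In normalized CPM, 4 of the 7 had both mimic libraries above both controls (28.9% of all genes), and 0 had both below (29.5% of all genes).

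Pdia3 (ERp57) works with calnexin and calreticulin on glycoproteins and is part of the complex that loads peptides on MHC class I. It had 397 and 466 normalized CPM in the controls, against 530 and 529 with the mimic. Both mimic libraries were above both controls, and the controls differed more from each other than the mimic libraries did. Its log2 fold change was 0.29 (95% interval 0.03 to 0.56, adjusted p = 0.167 in edgeR). It lies at chr2:121413775-121438687 on the plus strand and overlaps Catsper2 on the opposite strand, which had at most 100 counts.

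Pdia4 (ERp72), an isomerase with several thioredoxin-like domains, showed the highest log2 fold change of the 7. It had 135 and 161 normalized CPM in the controls, against 194 and 183 with the mimic, so the groups did not overlap. The log2 fold change was 0.35 (95% interval 0.09 to 0.62, adjusted p = 0.120 in edgeR). The gene lies at chr6:47796141-47813430 on the minus strand.

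Pdia5 (PDIR), a member with low expression, had 11.6 and 14.1 normalized CPM in the controls, against 14.9 and 17.3 with the mimic. These groups did not overlap either, but control replicate 2 and mimic replicate 3 were adjacent. Its log2 fold change was 0.33 (95% interval -0.04 to 0.70, adjusted p = 0.247 in edgeR). The gene lies at chr16:35397312-35490873 on the minus strand.

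Txndc5 (ERp46), which has a seed match in its 3' UTR, had 137 and 146 normalized CPM in the controls, against 146 and 178 with the mimic. Mimic replicate 3 exceeded control replicate 2 by less than 1 normalized CPM, and only mimic replicate 4 stood above the rest. The log2 fold change was 0.19 (95% interval -0.08 to 0.47, adjusted p = 0.340 in edgeR). It was the only member whose expected counts were not whole, which was so in all 4 libraries, so some of its reads were divided with other genes. The gene lies at chr13:38500079-38528824 on the minus strand and overlaps Bmp6, the pseudogene Gm47994 and the antisense gene Gm31834 on the other strand. None of these exceeded 40 counts in a library.

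Pdia6 (P5), which binds the chaperone BiP and carries the other seed match, had 157 and 189 normalized CPM in the controls, against 177 and 193 with the mimic. The groups overlapped, and mimic replicate 3 was below control replicate 2. Its log2 fold change was 0.10 (95% interval -0.17 to 0.37, adjusted p = 0.635 in edgeR). It lies at chr12:17266545-17284770 on the plus strand.

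P4hb, the founding disulfide isomerase and a subunit of both prolyl 4-hydroxylase and the lipid transfer protein, had 1141 and 1518 normalized CPM in the controls, against 1261 and 1423 with the mimic. The mimic libraries lay between the controls. The log2 fold change was 0.01 (95% interval -0.36 to 0.39, adjusted p = 0.968 in edgeR), the widest interval of the 7. It lies at chr11:120560298-120573253 on the minus strand. Erp44, which retains Ero1 and other clients that lack a retrieval signal, had 89.4 and 95.8 normalized CPM in the controls, against 94.0 and 93.3 with the mimic. Its 4 libraries were the closest of the 7 members, with a log2 fold change of 0.02 (95% interval -0.20 to 0.23, adjusted p = 0.933 in edgeR). It lies at chr4:48193323-48279558 on the minus strand.

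**Figure D2:**
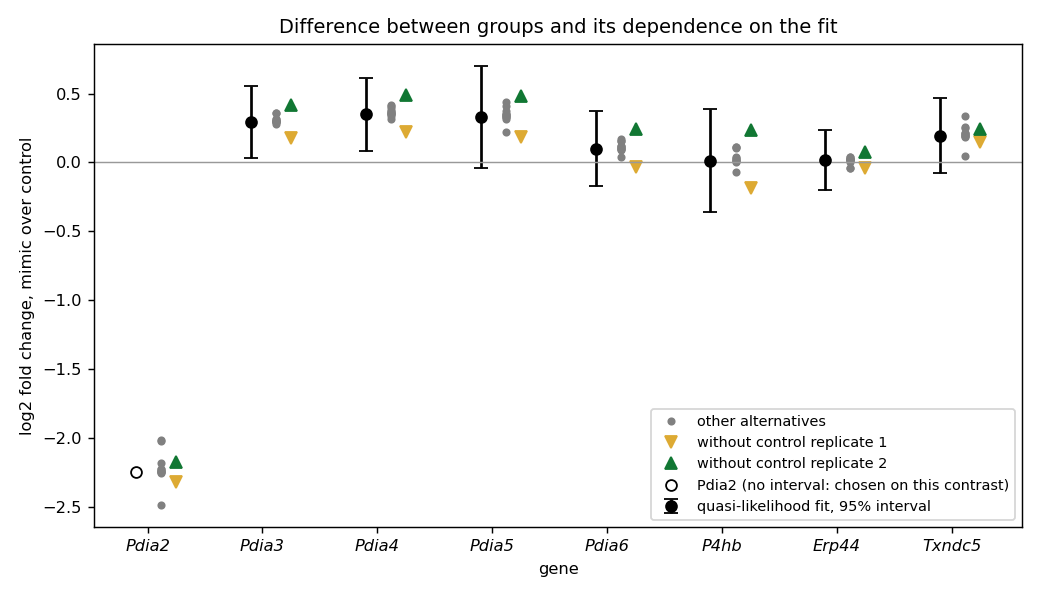
Log2 fold change (mimic over control) of each gene. Black points are edgeR's quasi-likelihood fit with its 95% interval, the open circle is Pdia2 without an interval, small grey points are alternative fits, and coloured triangles leave out control replicate 1 or 2. Pdia3 was 0.18 without control replicate 1 and 0.42 without control replicate 2, and Pdia2 stayed between -2.49 and -2.01.

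The small differences of the 7 members moved with the library left out. For Txndc5 the mimic libraries moved it most, with 0.34 without mimic replicate 3 and 0.05 without mimic replicate 4. Control replicate 1 had the lowest normalized CPM of the 4 libraries for all 7, whereas it was lowest for 30.4% of all genes tested. Without control replicate 2, so that control replicate 1 alone stood for the controls, Pdia3 (log2 fold change 0.42, adjusted p = 0.0319 in edgeR) and Pdia4 (0.49, adjusted p = 0.0193) passed the threshold, but 6.31% of all genes were then called higher. Without control replicate 1, Pdia3 had 0.18 (adjusted p = 0.441) and Pdia4 0.22 (adjusted p = 0.343), and the median of the 7 was 0.15. The summed TPM of the Paneth cell markers was highest in control replicate 1. Defa17, Defa24, Defa30, Mmp7 and Ang4 were highest there in TPM, whereas Lyz1 and Itln1 were highest in mimic replicate 4. In normalized CPM Lyz1 too was highest in control replicate 1 (219, against 208 in mimic replicate 4). The part of the Paneth cell markers in the members' values was not tested. For 1 gene in 2 against 2 libraries the smallest p of an exact two-sided permutation test is 0.333, so each call draws on the variance that edgeR estimates from all genes together.

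TPM divide counts by transcript length and allow the levels of the members to be compared. P4hb was the most abundant, with 562 and 789 TPM in the controls, against 669 and 776 TPM with the mimic. Pdia3 followed with 221 to 319 TPM over the 4 libraries. Neither range overlapped that of its neighbours in the order. Pdia6 had 96.0 to 129 TPM, Pdia4 69.3 to 103 TPM and Txndc5 61.8 to 87.8 TPM, and the neighbours in this order overlapped over all 4 libraries. Within each group they did not, and the order held in every library. Erp44 lay below them with 51.0 to 57.8 TPM.

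The lowest places were taken by Pdia2 and Pdia5, and their order differed between the groups. In the controls Pdia2 had 24.1 and 26.7 TPM and Pdia5 7.97 and 10.1 TPM. With the mimic Pdia2 had 6.20 and 4.91 TPM and Pdia5 10.7 and 13.3 TPM. Pdia2 was thus above Pdia5 in both controls and below it in both mimic libraries, and since Pdia2 was selected for its fall this is a description. The summed TPM of the 8 members was 1096 and 1415 in the controls, against 1315 and 1490 with the mimic, so the groups overlapped. Pdia2 made up 2.20% and 1.89% of that sum in the controls, against 0.472% and 0.329% with the mimic. P4hb made up between 50.9% and 55.7% of it in every library.

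**Figure D3:**
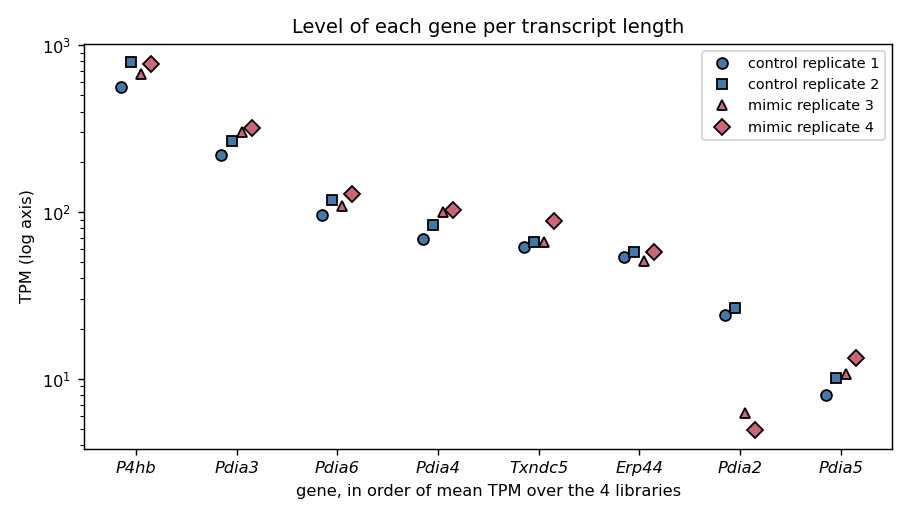
TPM of the 8 genes in each library on a log axis, in the order of their mean. Blue symbols are the controls and red symbols the mimic libraries. P4hb led with 562 to 789 TPM, and Pdia2 lay above Pdia5 in the controls (24.1 and 26.7 TPM) and below it with the mimic (6.20 and 4.91 TPM).

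The partners of the family were grouped in 7 lists with 61 genes, of which 56 were tested. Erp27, Pdilt, Gpx8, P4ha3 and Clgn were at or near 0 and were not tested. By the same test and threshold 1 of the 56 was higher and 0 were lower, which is near the 1.28% and 2.29% of all genes. At an unadjusted p under 0.05, 17 were higher and 5 lower (11.8% and 13.0% of all genes), and the median log2 fold change was 0.18. The 5 lower genes, named after their values were seen, were Vkorc1, P4ha1, Uggt2, Tap1 and Tap2. Control replicate 1 was the lowest library for 34 of the 56 genes (30.4% of all genes). Without control replicate 2, 13 of the 56 were higher (6.31% of all genes), and without control replicate 1 none was and the median was 0.08.

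The called gene was Dnajc10 (ERdj5), a reductase of the same fold that opens disulfide bonds of proteins bound for degradation. It had 44.5 and 48.6 normalized CPM in the controls, against 63.8 and 68.3 with the mimic, so both mimic libraries were clearly above both controls. Its log2 fold change was 0.51 (95% interval 0.26 to 0.75, adjusted p = 0.0469 in edgeR), close to the threshold. The alternatives gave it an adjusted p between 0.00298 and 0.175. The call was lost with no filter on low counts, in both fits of TPM, and without control replicate 1 (0.0953), mimic replicate 3 (0.0970) or mimic replicate 4 (0.125). Among the 12 tested genes of this list of other PDI-like proteins the median was 0.19. Agr2, a goblet cell isomerase that mucin folding requires, was the most abundant with 116 and 106 TPM in the controls, against 136 and 206 TPM in the mimic libraries (log2 fold change 0.55, adjusted p = 0.0945). Tmx2, a membrane-bound member, had a log2 fold change of 0.01 (adjusted p = 0.979).

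Of the disulfide oxidants, which reoxidize the isomerases, 0 of 8 tested genes were called in either direction and the median was -0.03. Ero1l, the principal oxidase of P4hb, had 398 and 905 normalized CPM in the controls, against 539 and 790 with the mimic. The controls spanned the mimic libraries. The log2 fold change was 0.03 with a 95% interval of -0.78 to 0.84 (adjusted p = 0.967 in edgeR). Leaving out control replicate 2 gave 0.74 (adjusted p = 0.0313) and leaving out control replicate 1 gave -0.45 (adjusted p = 0.242). Its paralog Ero1lb had -0.09 (adjusted p = 0.720), and Qsox1, an oxidase of the Golgi and the secreted fluid, had -0.36 (adjusted p = 0.241).

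Among the subunits that pair with P4hb, 0 of 3 tested genes were called and the median was 0.04. P4ha1, the catalytic subunit of prolyl 4-hydroxylase, had 61.7 and 86.0 normalized CPM in the controls, against 41.7 and 57.5 in the mimic libraries (log2 fold change -0.57, adjusted p = 0.133 in edgeR). Mttp, the large subunit of the lipid transfer protein, had 617 and 910 against 795 and 776. Both mimic libraries of Mttp lay between the controls, as for P4hb, and its log2 fold change was 0.04 (adjusted p = 0.910).

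The calnexin cycle and MHC loading genes, with which Pdia3 works, had 0 of 10 tested genes called and a median of 0.12. The lectin chaperone Calr had 391 and 553 normalized CPM in the controls, against 715 and 657 in the mimic libraries (log2 fold change 0.54, adjusted p = 0.109), and Canx had a log2 fold change of 0.25 (adjusted p = 0.201). The MHC loading genes, named after their values were seen, had log2 fold changes below 0, with -0.79 for Tap1 (adjusted p = 0.0620), -0.74 for Tap2 (adjusted p = 0.0758) and -0.16 for Tapbp (adjusted p = 0.365). Of the ER chaperones, 0 of 12 were called, with a median of 0.23. Hspa5 (BiP) had 394 normalized CPM in control replicate 1 and between 563 and 571 in the other 3 libraries, so 1 control stood apart from the other and from the mimic libraries. Its log2 fold change was 0.25 (adjusted p = 0.386), and that of Hsp90b1 was 0.19 (adjusted p = 0.370). Without control replicate 2, 7 of the 12 chaperones were higher (6.31% of all genes in that fit) and the median was 0.48, whereas without control replicate 1 the median was 0.07.

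The KDEL receptors return isomerases that leave the ER. None of the 3 was called and the median was 0.29, with log2 fold changes of -0.11 for Kdelr1 (adjusted p = 0.486) and 0.29 for Kdelr2 (adjusted p = 0.135). Of the UPR sensors and their factors, 0 of 8 were called and the median was 0.24. Xbp1 had a log2 fold change of -0.19 (adjusted p = 0.309) and Atf4 of 0.24 (adjusted p = 0.196 in edgeR).

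**Figure D4:**
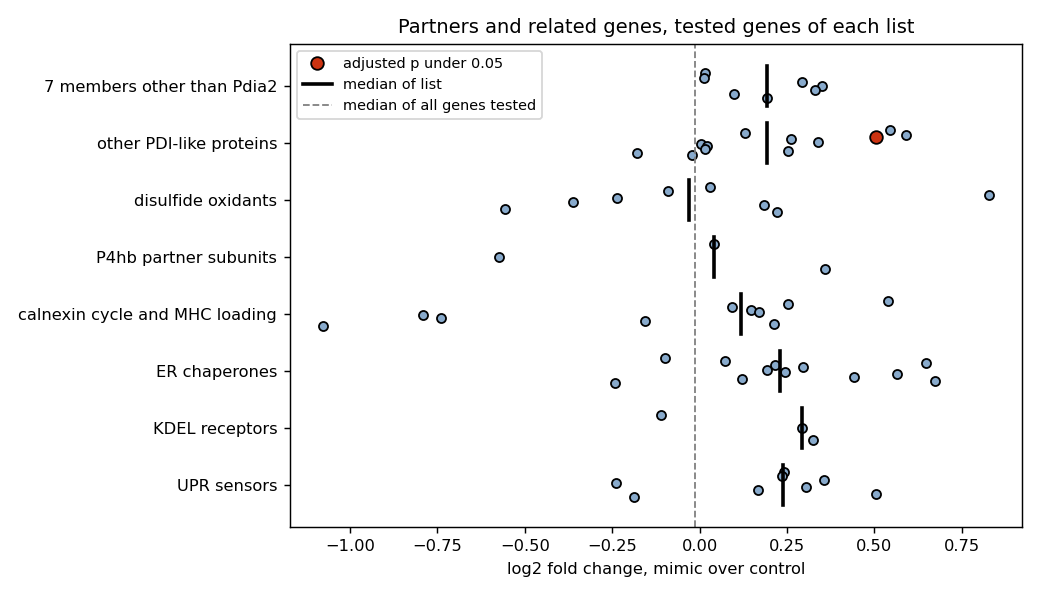
Log2 fold change (mimic over control) of each tested gene in the family without Pdia2 and in the 7 lists of partners. Black bars are list medians, the dashed line is the median of all genes tested (-0.01), and the red point is Dnajc10 (0.51), the single gene past an adjusted p of 0.05.

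The members' promoters were read for elements of the UPR, in RefSeq windows (GRCm38.p6) from 250 bases before to 50 bases after each start. The ER stress response element (ERSE) is CCAAT and CCACG with 9 bases between them, and it was sought on both strands. Of the 8 members, with 11 windows in all, only Pdia6 held it, as did the chaperone genes Hspa5 and Calr, which were read for comparison. The element was present in 0.119% of all 32851 windows. The matches are shown on the strand where they read in this order, with CCAAT and CCACG in capitals.
Pdia6: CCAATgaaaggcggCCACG
Hspa5: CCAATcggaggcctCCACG
Calr: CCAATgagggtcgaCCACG
They lie at chr12:17266491-17266509 for Pdia6, chr2:34772025-34772043 for Hspa5 and chr8:84847075-84847093 for Calr. The second form of the element, ATTGG and CCACG with 1 base between them, was in no member's window and in 0.0365% of all windows. The UPR element core TGACGTGG was in 1 of the 3 windows of Txndc5 and in 0.676% of all windows, and there it overlapped a CCACG on the other strand. The genes with ERSE had log2 fold changes of 0.10 (Pdia6), 0.25 (Hspa5) and 0.54 (Calr), and none was called.

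Pdia2 stands close to its neighbours on chromosome 17. The gap between its start and the end of Arhgdig, a gene on the same strand, was 95 bases, and 187 bases lay between its end and that of Axin1 on the plus strand. The bases of that first gap, chr17:26199088-26199182 of GRCm38.p6 from RefSeq, are shown on the strand of Pdia2, with CCACG on either strand in capitals.
Arhgdig to Pdia2: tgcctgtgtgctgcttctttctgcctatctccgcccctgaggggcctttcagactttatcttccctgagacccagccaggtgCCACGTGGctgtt
The capitals hold 2 overlapping copies, 1 on each strand, within 13 bases of the start. CCACG was in 32.8% of all promoter windows. The window of Pdia2 also held CCAAT at 2 places, a sequence in 37.4% of all windows, but not at the spacing of ERSE.

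Within 100000 bases of Pdia2 on either side, 16 other genes were listed and 12 were tested. Of the 12, 1 passed the threshold of 0.05 as lower and 0 as higher, where 2.29% and 1.28% of all genes did. That gene was Rgs11, a regulator of G protein signalling, which lies 3863 bases beyond the start of Pdia2. It had 31.5 and 27.5 normalized CPM in the controls, against 13.6 and 19.1 in the mimic libraries (log2 fold change -0.85, standard error 0.18, adjusted p = 0.0477 in edgeR). Both mimic libraries were below both controls. Its adjusted p lay between 0.000763 and 0.195 in the alternatives. The call was lost with library totals alone, with no filter and in both fits of TPM, and the adjusted p was 0.0721 without control replicate 1 and 0.129 without mimic replicate 3.

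Arhgdig had 16.0 and 18.1 normalized CPM in the controls, against 12.4 and 11.3 with the mimic. These groups did not overlap, but the gene did not pass the threshold (log2 fold change -0.53, standard error 0.14, adjusted p = 0.0834 in edgeR). Over the alternatives its adjusted p was 0.0370 to 0.240. Arhgdig and Rgs11 overlap in part on opposite strands. Whether the counting used strand is not given in the sources used here, and the expected counts of both genes were whole numbers in all 4 libraries. Axin1, a scaffold of the Wnt pathway on the other side, had 63.9 and 63.9 normalized CPM in the controls, against 82.8 and 75.6 in the mimic libraries (log2 fold change 0.31, adjusted p = 0.115). The genes on either side of Pdia2 thus had log2 fold changes of opposite sign. Of the remaining tested neighbours, Gm8186, Tmem8, Mrpl28, Fam234a, AC126438.1, AC126438.4, Luc7l, AC126438.2 and Gm16580, the log2 fold changes lay between -0.44 for AC126438.1 and 0.14 for AC126438.4, and none had an adjusted p under 0.329. The untested AC140047.1, Gm23123, AC126438.3 and Hba-ps4 had at most 0.223 normalized CPM in any library.

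**Figure D5:**
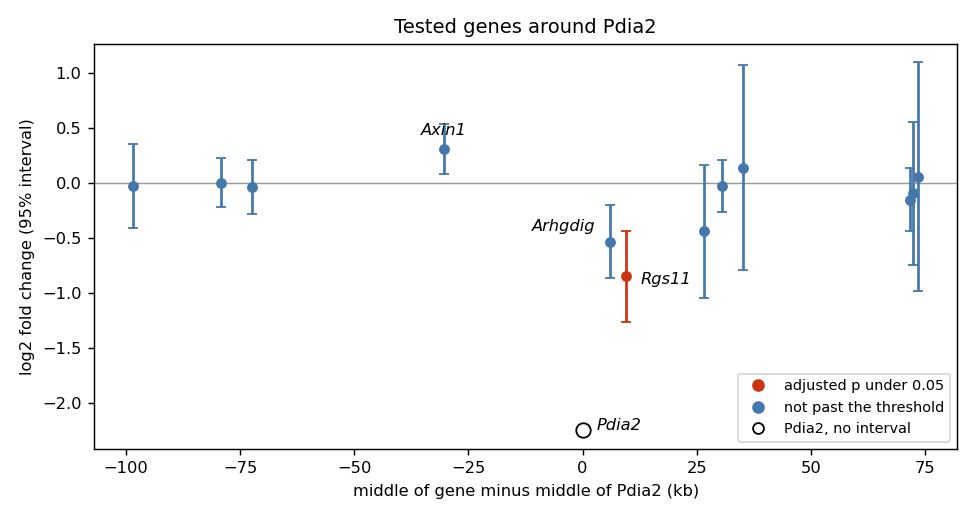
Log2 fold change (mimic over control) of the tested genes within 100000 bases of Pdia2 against the distance between the middles of the genes in kb. Error bars are 95% intervals, the red point is Rgs11 (adjusted p = 0.0477), and the open circle is Pdia2, shown without an interval. Pdia2 (-2.25), Rgs11 (-0.85) and Arhgdig (-0.53) lay below 0 side by side, while Axin1 (0.31) lay above it.

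The genes whose profile over the 4 libraries was most like that of Pdia2 were sought among the tested genes with counts in every library. The measure was the root mean square difference of log2 normalized CPM after each gene was centred on its own mean. The 5 nearest were Gm4017 (0.13), Gm48188 (0.14), Cfhr2 (0.15), Rsad2 (0.15) and Rdh7 (0.16), in log2 units. With 4 libraries in 2 groups, this measure compares mainly the size of the fall. Rdh7, a retinol dehydrogenase gene, had 65.8 and 66.5 normalized CPM in the controls, against 15.4 and 14.8 with the mimic. Cfhr2, related to complement factor H, had 11.8 and 11.9 against 3.16 and 2.67. Gm4017 and Gm48188 are processed pseudogenes with at most 20 counts in a library, and the interferon-induced gene Rsad2 had at most 25. With the mimic these genes had at most 6 counts. They therefore passed the filter on low counts only through the controls, and their differences from Pdia2 are uncertain. None of the 5 was another member of the family.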

How the data were processed

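RNA-seq of 4 libraries of mouse SI organoids was analysed, 2 with a mimic control and 2 with a miR-181a-5p mimic. Per the labels and the paper's methods, the authors trimmed reads with Trimmomatic, quantified them with RSEM on GRCm38, and deposited unnormalized expected counts per gene and TPM. The labels describe poly(A) enrichment and the supplemental methods depletion of ribosomal RNA. Both deposited tables held 3 columns that matched no sample and were not used.

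Expected counts were rounded and tested with edgeR 4.0.16 (R 4.3.3): filterByExpr, TMM, glmQLFit (legacy = FALSE) and glmQLFTest, adjusted by Benjamini-Hochberg over 17155 genes. The threshold was an adjusted p of 0.05. The script was checked on simulated counts. Alternatives were edgeR's exact test, the legacy fit (added after the data were seen), DESeq2 1.42.0, RLE factors, library totals, no filter, at least 10 counts in every library, limma 3.58.1 on log-transformed TPM (pseudocount 1 or 0.1, genes at 1 TPM or more in at least 2 libraries), and leaving out each library. The limma fold changes are differences of log2(TPM + pseudocount), so they understate the change of low genes. The common biological coefficient of variation was 0.130, and depth was not limiting for the members beside that spread.

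The members and lists were chosen with earlier results of these data known. The genes named were the members, called genes and the 2 with the highest mean TPM of each list, Mttp, P4ha1, Ero1l and Ero1lb, genes within 100000 bases of Pdia2 and the 5 nearest profiles. Others were chosen after their values were seen. Symbols and coordinates were from GENCODE release 21 for mouse, which held 55227 of 55487 genes. Every member matched. Where a symbol had several identifiers, that with the highest mean count was used. Plots were drawn with matplotlib 3.10.9.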

Additional observations from a re-analysis of the deposited data

How the results depend on the processing

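Pdia2 was given no test. Among the 7 other members, none was lower at an adjusted p under 0.05 in any of the 13 alternatives, and none was higher except without control replicate 2. With 1 library left out, the lone library of a group is assumed to vary like the others. The number of members called higher was then 0 to 2, and Pdia2 had a log2 fold change of -2.49 to -2.03. Over all genes, leaving out a library gave 214 to 1213 lower and 159 to 1152 higher genes, and over the related genes 0 to 3 lower and 0 to 13 higher. Against 392 lower and 220 higher genes in the reported fit, edgeR's exact test gave 1027 and 761, DESeq2 652 and 646, no filter 125 and 67, log2(TPM + 1) 43 and 32, and log2(TPM + 0.1) 16 and 11. The related genes, 0 lower and 1 higher in the reported fit, were 3 lower and 5 higher by the exact test and 1 lower and 6 higher by DESeq2. None was higher without a filter or with either TPM fit. Signs reversed for 3 members with small values. Over the fits without 1 library the log2 fold change was -0.033 to 0.24 for Pdia6, -0.18 to 0.24 for P4hb and -0.040 to 0.072 for Erp44. Each low value came without control replicate 1, and P4hb had -0.073 without mimic replicate 4. Erp44 had -0.038 with log2(TPM + 1) and -0.039 with log2(TPM + 0.1). The cause was not tested. Of the 91 alternative values of the 7 members, 83 kept their direction and their side of the threshold. No paired analysis was possible because the replicate numbers of the groups, 1 and 2 against 3 and 4, do not overlap.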
